A study of Danio rerio with 3 samples.

Results

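The genes described here are the pluripotency and early neural transcription factors of the zebrafish embryo that belong to the Pou5f3, SoxB1 and Sox11 groups, with nanog and foxd3 beside them. Oligonucleotide probes (oligos) were assigned to 9 genes (pou5f3, sox19b, nanog, sox2, sox3, sox19a, foxd3, sox11a and sox11b) by the gene symbol, title or RefSeq accession printed in the array's own annotation, a rule that uses no measured value. The array carried 23 oligos for 8 of these genes out of 34033 distinct oligos, and no oligo whose annotation names nanog was found. Of the 23, 22 were usable on all 3 arrays, so 8 member genes entered the test together with the other genes that have a symbol, 997 in all.

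The study compared embryos injected with a morpholino against FoxH1 with embryos injected with a control morpholino, both collected at 40% epiboly. A morpholino is an antisense molecule that blocks translation or splicing of its target. FoxH1 is a forkhead transcription factor that works with Smad proteins downstream of Nodal signals. RNA from 50 pooled FoxH1 morphants was hybridised against RNA from 50 pooled control embryos on each of 3 arrays, so every value below is a ratio within an array. Morphant RNA was labelled with Cy3 for arrays 1 and 2, and with Cy5 for array 3 (the swapped one). The design text describes independent repeats, and nothing else tells whether the pools came from separate injections, so the spread over arrays may be partly technical. The strain is not given in the sources used here, and whole embryos were pooled, so fewer cells of a type and less RNA per cell cannot be told apart.

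In fish embryos the first transcription from the zygotic genome depends on factors that the mother places in the egg. Pou5f3 (formerly Pou2), a POU-domain protein of the family of mammalian Oct4, the SoxB1 protein Sox19b and the homeodomain protein Nanog are the best known of these. SoxB1 proteins bind DNA through an HMG box and often sit beside a POU factor on composite sites. Zygotic SoxB1 genes (sox2, sox3 and sox19a) then take over, chiefly in the future neural plate. Sox11a and Sox11b belong to the related SoxC group, and Foxd3 is a forkhead repressor best known for its role in the neural crest.

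Median oligo intensities on arrays 1, 2 and 3 were 186.9, 144.2 and 377.1 in the morphant column and 458.1, 331.8 and 159.4 in the control column. The columns of array 3 were read as ordered by sample. Local background was higher in the red than in the green column for 5.5%, 5.15% and 94.1% of the spots of arrays 1, 2 and 3. This reversal on array 3 was part of the basis for reading its columns by sample. Values with the sign of array 3 turned are given for each member gene and for part of the other results. Ratios over all usable oligos correlated at r = 0.82 between arrays 1 and 2, and at r = -0.35 and r = -0.47 between these and array 3, which is a description across oligos. Because of these negative correlations, some genes are given both as the mean of the 3 arrays and as a dye-balanced value. The dye-balanced value gives equal weight to the 2 dye orientations. For pou5f3, sox3, sox11a and sox11b it was -0.30, -0.45, -0.50 and 0.42. In the text, most genes of the lists are given as the mean of the 3 arrays only. Only array 3 has morphant RNA in Cy5, so the SE of a dye-balanced value does not measure agreement between the orientations. All log2 values below are differences, morphant over control, after loess normalization within each array. The targeted transcript, foxh1, was at -0.02, 0.07 and -0.13 on the 3 arrays. These values do not check the knockdown, because a morpholino that blocks translation or splicing need not change the RNA level.

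Each of the 23 member oligos exceeded 2 SDs of the local background in morphant and control columns alike, on every array. The random control oligos of the array, however, had median intensities of 296.7, 168.4 and 526.1 in the morphant column and 704.3, 522.4 and 197.1 in the control column of arrays 1, 2 and 3. Of the 23 member oligos, 20 were brighter than these medians in both columns of every array, against 28% of all oligos. The MWG oligo of foxd3 and the Operon oligo of sox2 lay below them in some columns, and the pou5f3 oligo left out of the test lay below them in all. By their titles, 18 oligos came from the zebrafish gene's own database entry. The other 5 were titled by similarity to a listed entry and include every oligo for sox2 and sox3. The library sequences behind those titles were not used here, so a closely related SoxB1 gene cannot be told apart from the named one.

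No member gene passed the test between morphants and controls, and the members lay on both sides of 0. With limma and Benjamini-Hochberg adjustment, 0 of 8 member genes had an adjusted p under 0.05, against 0% of all 997 genes. At an unadjusted p under 0.05 there were 3 member genes (sox19b, sox11a and sox2), against 11.2% of all genes. Below 0 on all 3 arrays were 4 members (pou5f3, sox2, sox3 and sox11a), against 19.8% of all genes, and above 0 on all 3 were sox19b and sox11b, against 12.4% of all genes. The median of the 8 mean log2 ratios was -0.30, against -0.01 over all genes. With array 3 turned, 1 member (foxd3) was below 0 on all 3 arrays, against 21.1% of all genes, and 1 (sox19a) above 0 on all 3, against 33.7%. Under that reading 0 of 8 members passed, against 15.3% of all genes (153).

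**Figure D1:**
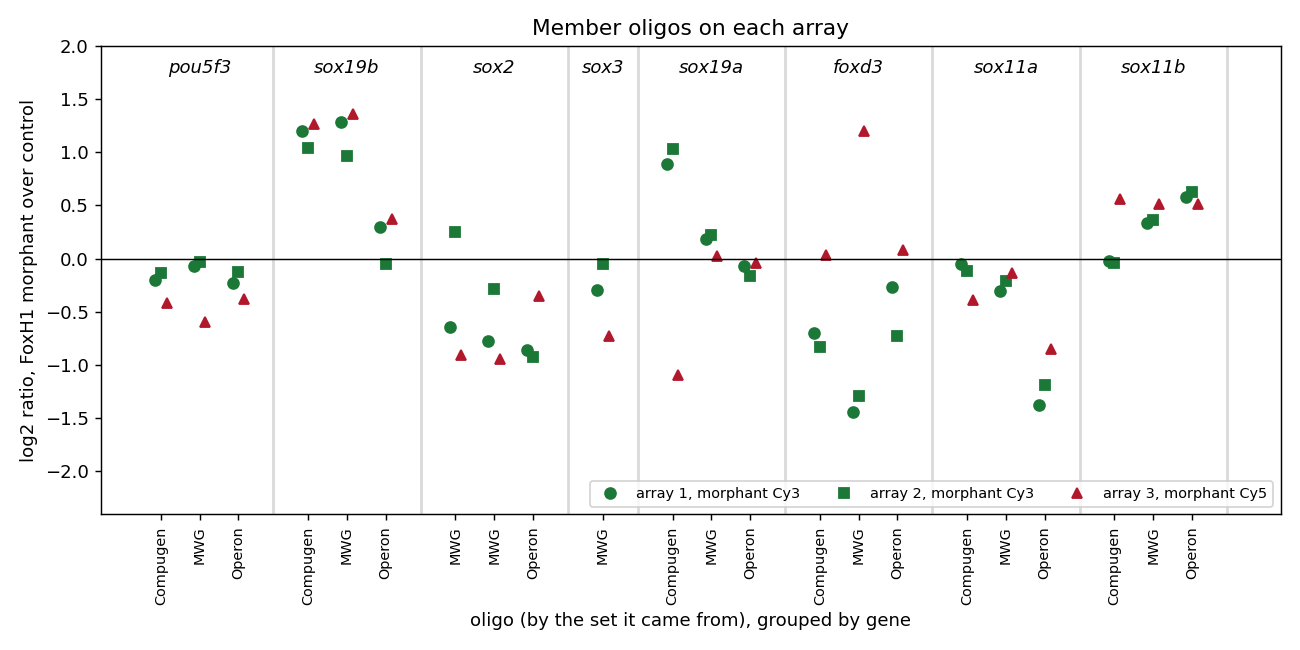
Log2 ratios, FoxH1 morphant over control, of the 22 usable member oligos on each array (y axis), grouped by gene and ordered by the oligo set they came from (x axis). Each point is 1 oligo on 1 array; circles and squares are arrays 1 and 2 with morphant RNA in Cy3, and triangles are array 3 with morphant RNA in Cy5. The Compugen and MWG oligos of sox19b sit near 1 or above on all 3 arrays. The array 3 triangles of foxd3 lie across 0 from arrays 1 and 2, the Compugen and Operon ones close to it.

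Among the maternal members, sox19b had the highest mean of all 8 members, a rank it kept under 13 of 15 alternative settings. Its log2 ratio was 0.93, 0.65 and 1.0 on arrays 1, 2 and 3, with a mean of 0.86 ± 0.18 (SD, n = 3 arrays; limma adjusted p = 0.247), or 1.81-fold higher in morphants. All 3 arrays lay above 0, and the dye-balanced value was 0.89 ± 0.11 (SE; adjusted p = 0.0760 with a dye term in limma). Its adjusted p ran from 0.0288 to 1.0 over the alternative settings, and it passed only without array 3, where 436 of 997 genes passed. The 3 sox19b oligos did not give the same size of difference. The Compugen oligo was at 1.17 ± 0.11 and the MWG oligo at 1.20 ± 0.21, each above 0 on all 3 arrays. Intensities of the MWG oligo were 1413.2, 857.9 and 2381.1 in morphants and 1806.1, 1381.5 and 344.3 in controls. These lie near the Compugen values given below. Oligo sequences were not at hand, so overlap between these oligos could not be checked. The Operon oligo was at 0.21 ± 0.23, with 0.30, -0.05 and 0.37 on arrays 1, 2 and 3. That oligo was the brightest of the 3, with intensities of 16649.8, 10154.3 and 37647.9 in morphants and 41948.3, 34084.9 and 12971.2 in controls, against 1366, 868.2 and 2505.5 in morphants and 1849.9, 1320.2 and 386.4 in controls for the Compugen oligo. With the brightest oligo in place of the mean, the gene's value was 0.21, below that of sox11b, and with array 3 turned it was 0.19, below that of sox19a.

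For pou5f3, which encodes the POU partner of the SoxB1 proteins, the ratio lay slightly below 0 on every array. Its log2 ratios were -0.17, -0.10 and -0.46 on arrays 1, 2 and 3, with a mean of -0.24 ± 0.19 (SD, n = 3; limma adjusted p = 0.676). The 3 oligos that entered this mean came from 3 different sets and were at -0.25 ± 0.14, -0.23 ± 0.31 and -0.24 ± 0.13, so they differed by far less than the spread between arrays. The authors' deposited log2 ratios, which have no correction for intensity, gave a mean of -0.44 for the same oligos, with -0.52, -0.54 and -0.32 for the Compugen oligo. With median centring of each array in place of loess, the mean was -0.43. The remaining pou5f3 oligo was left out because its quality score was 0 on array 1. With such spots kept, the mean turned to 0.09, and with array 3 turned it was 0.07.

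The zygotic SoxB1 gene sox2, which marks the neural plate and its progenitors in vertebrates, had the lowest mean of the 8 members as reported and under 10 of 15 alternative settings. Foxd3 was lowest with array 3 turned and without array 3, and sox11a with median centring, with the deposited values and with own zebrafish entries, where sox2 has no oligo. Sox2 was at -0.76, -0.32 and -0.73 on arrays 1, 2 and 3, with a mean of -0.60 ± 0.25 (SD, n = 3; limma adjusted p = 0.391), a ratio of 0.658. The dye-balanced value was -0.64 ± 0.14 (SE; adjusted p = 0.111 with a dye term in limma). The 3 oligos were at -0.43 ± 0.61, -0.67 ± 0.34 and -0.71 ± 0.32, and all but 1 of their 9 single values lay below 0. The exception was an MWG oligo at 0.25 on array 2, which was at -0.64 and -0.91 on arrays 1 and 3. The Operon oligo, at -0.71 ± 0.32, was dimmer than the random control medians in the morphant column of every array. With array 3 turned, sox2 was at -0.11.

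The neighbouring SoxB1 gene sox3 rested on a single oligo titled by similarity to medaka Sox3. Its ratio was -0.30, -0.05 and -0.72 on arrays 1, 2 and 3, with a mean of -0.36 ± 0.34 (SD, n = 3; limma adjusted p = 0.607). Every array was below 0, but the spread over arrays was about as large as the mean, and the mean was 0.12 with array 3 turned. The intensities were 1565.7, 1040.6 and 1469.1 in morphants and 6485.3, 3630.9 and 898.2 in controls. On array 3, where the dyes are exchanged, the morphant column was the higher of the pair. The same held for the median oligo intensities of that array, at 377.1 in the morphant and 159.4 in the control column.

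The third zygotic SoxB1 gene, sox19a, had no ratio that held over the arrays as read by sample. It was at 0.33, 0.36 and -0.37 on arrays 1, 2 and 3, with a mean of 0.11 ± 0.42 (SD, n = 3; limma adjusted p = 0.866) and a dye-balanced value of -0.01 ± 0.08 (SE). The Compugen oligo accounted for most of this pattern, with 0.89, 1.04 and -1.10. The MWG and Operon oligos of the same gene stayed near 0, at 0.15 ± 0.10 and -0.09 ± 0.07. With array 3 turned, sox19a was at 0.36 and above 0 on all 3 arrays (limma adjusted p = 0.146). The sign of sox19a was below 0 under 6 of 15 alternative settings.

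Foxd3 was the member whose ratio on array 3 lay farthest from that on arrays 1 and 2, with the columns read by sample. Its values were -0.80, -0.95 and 0.44 on arrays 1, 2 and 3, with a mean of -0.44 ± 0.76 (SD, n = 3; limma adjusted p = 0.740). All 3 oligos were below 0 on arrays 1 and 2 and above 0 on array 3. On array 3 the Compugen and Operon oligos were at only 0.04 and 0.08, so the 0.44 came largely from the MWG oligo. The MWG oligo spanned the widest range, at -1.44, -1.29 and 1.20, and was dim, with intensities of 117.8, 188.5 and 402 in morphants and 824.7, 1280.6 and 72.8 in controls. The dye component of foxd3, the distance of the Cy5 array from the dye-balanced value, was 0.66. Its median size was 0.14 over the 8 members and 0.35 over all genes. For the Compugen, MWG and Operon oligos of foxd3 the dye component was 0.40, 1.28 and 0.29. The dye-balanced value of the gene was -0.22 ± 0.09 (SE; adjusted p = 0.237 with a dye term in limma). With array 3 turned, foxd3 was at -0.73 and below 0 on all 3 arrays, with the lowest adjusted p of the members under that reading (limma adjusted p = 0.0634). Without array 3, foxd3 was at -0.87 (limma adjusted p = 0.0204), a setting in which 436 of the 997 genes passed. Both arrays of that setting have morphant RNA in Cy3, so the dye component stays in the value. Over the alternatives the adjusted p of foxd3 ran from 0.0204 to 1.0.

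**Figure D2:**
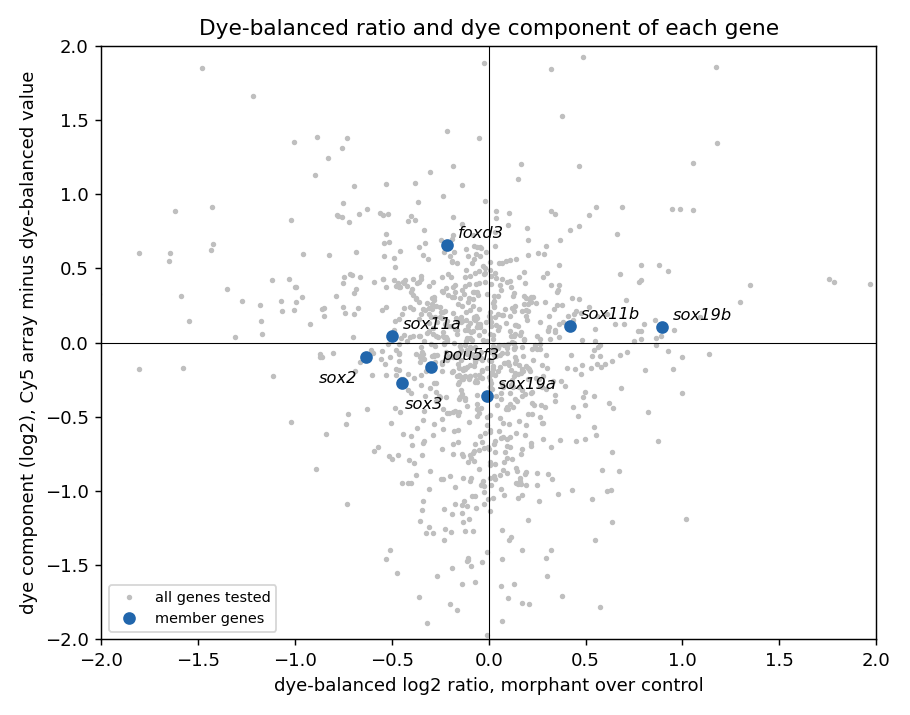
Dye-balanced log2 ratio, FoxH1 morphant over control (x axis), against the dye component, the log2 ratio on the Cy5 array minus the dye-balanced value (y axis). Grey points are the 997 genes tested, of which 33 lie outside the axes, and blue points are the 8 member genes. Sox19b and sox11b lie to the right and sox2, sox11a, sox3 and pou5f3 to the left, while foxd3 lies highest of the members on the y axis, at 0.66.

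The paralogues sox11a and sox11b are SoxC genes that act in neural progenitors and differentiating neurons. Their means over oligos lay on opposite sides of 0 on every array. The ratio of sox11a was -0.58, -0.50 and -0.46 on arrays 1, 2 and 3, with a mean of -0.51 ± 0.06 (SD, n = 3; limma adjusted p = 0.370), the smallest spread of the 8 members. The ratio of sox11b was 0.30, 0.32 and 0.53, with a mean of 0.38 ± 0.13 (SD, n = 3; limma adjusted p = 0.544). Sox11a minus sox11b was -0.87, -0.82 and -0.99 on the 3 arrays, or -0.89 ± 0.08 (SD, n = 3). This difference is between different oligos and was not tested.

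The size of the sox11a value came largely from its Operon oligo. That oligo was at -1.14 ± 0.27, with -1.38, -1.18 and -0.85 on arrays 1, 2 and 3, whereas the Compugen and MWG oligos were at -0.18 ± 0.18 and -0.21 ± 0.09. All 9 single values of the 3 oligos were below 0. For sox11b the order of the sets differed, with the Operon oligo at 0.58 ± 0.06, the MWG oligo at 0.40 ± 0.10 and the Compugen oligo at 0.17 ± 0.34. The Compugen oligo of sox11b was at -0.02, -0.04 and 0.56 on arrays 1, 2 and 3, so not all its values were above 0. With the brightest oligo, sox11a was at -0.18 and sox11b at 0.58. With array 3 turned, they were at -0.21 and 0.03.

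Agreement between oligos of a gene was described over the 7 members with at least 2 usable oligos. In 6 of these 7, all but sox19a, the oligo means shared 1 sign, against 52.8% of the 625 genes with at least 2 oligos. At the level of single oligos, 10 of 22 were below 0 on all 3 arrays, against 17.6% of all 26196 oligos, and 5 of 22 were above 0 on all 3, against 17% of all oligos. With array 3 turned, 4 of 22 were below 0 and 1 above 0 on all 3, against 6472 and 6514 of 26196. None of the 22 passed limma's test at an adjusted p under 0.05, against 0% of all oligos. An unadjusted p under 0.05 was found for 6, against 11.3% of all oligos. The shares over all genes and oligos are not matched to the members for brightness. Of the 23 member oligos, 20 exceeded the random control medians in both columns of every array, against 28% of all oligos. Oligos of a gene share the arrays and the RNA and are not replicates, and overlap between their sequences could not be checked.

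With a dye term in limma, which removes a constant dye difference of each gene, the members' values had smaller errors, and the count of passing genes stayed 0. The adjusted p was under 0.1 for 3 of 8 members (sox19b, sox11a and sox11b, at 0.0760, 0.0861 and 0.0958), against 16.3% of all genes. At an unadjusted p under 0.05 there were 6 of 8 members, against 29.8% of all genes. The median dye-balanced log2 ratio was -0.26 over the members and -0.06 over all genes.

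**Figure D3:**
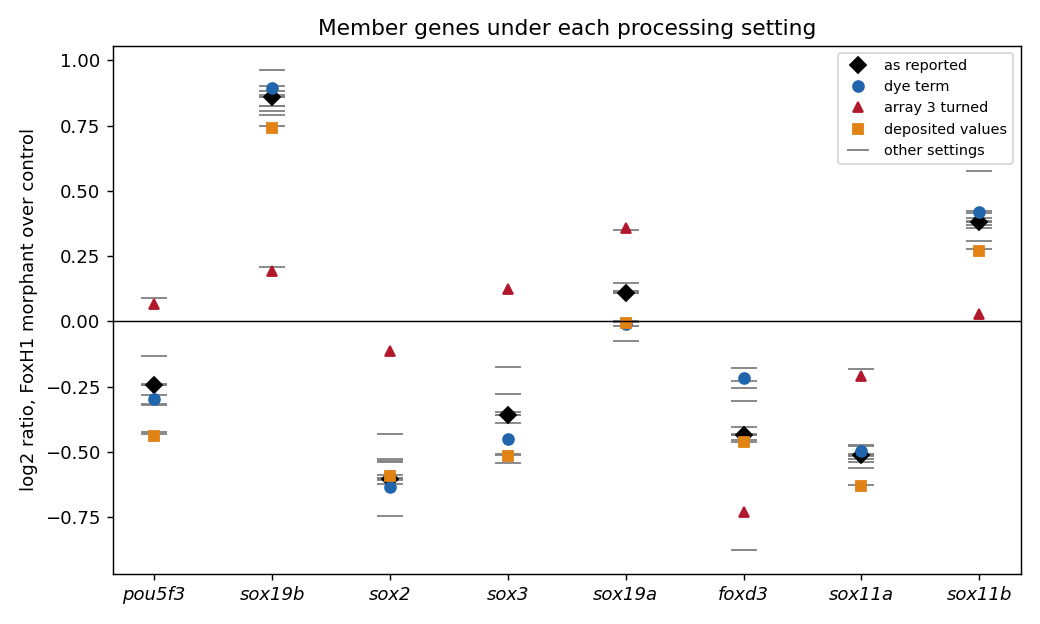
Log2 ratio, FoxH1 morphant over control (y axis), of each member gene (x axis) under every processing setting tried. Black diamonds are the values as reported, blue circles the fit with a dye term, red triangles the values with array 3 turned, orange squares the authors' deposited ratios, and grey dashes the other settings. Sox19b stays between 0.19 and 0.96 and sox2 between -0.75 and -0.11, whereas pou5f3, sox3 and sox19a have settings on both sides of 0.

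Maternal and zygotic members were set against each other within each array. The 2 labels group genes by whether the mother supplies their transcripts. The arrays do not tell maternal from zygotic RNA of the same gene. Over the measured maternal genes (pou5f3 and sox19b) the mean log2 ratio was 0.38, 0.28 and 0.27 on arrays 1, 2 and 3, and over the zygotic genes (sox2, sox3, sox19a and foxd3) it was -0.38, -0.24 and -0.35. The difference, maternal minus zygotic, was 0.76, 0.52 and 0.62, or 0.63 ± 0.12 (SD, n = 3 arrays). It lay above 0 on every array, but the maternal side rests on 2 genes with different signs. Sox19b alone exceeded pou5f3 by 1.09, 0.75 and 1.46 on the 3 arrays, so the maternal mean describes neither of them. The zygotic mean also joins unlike genes, since on array 3 foxd3 lay above 0 and sox2, sox3 and sox19a below it. Without foxd3 the zygotic mean was -0.24, -0.002 and -0.61, or -0.28 ± 0.31 (SD), against -0.32 ± 0.07 with it. The small spread of maternal minus zygotic thus does not describe single genes. Maternal minus zygotic was 0.22 with the brightest oligo of each gene and with array 3 turned alike, and no p is given for it.

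The other genes around these factors were described from lists of known regulators. Of 32 targets and partners of Pou5f3, SoxB1 and Nanog, 18 were measured, and 0 passed limma's test, against 0% of all genes. On all 3 arrays 3 were below 0 and 2 above 0, against 19.8% and 12.4% of all genes. The list median was -0.04, against -0.01 over all genes. The Kruppel-like factor gene klf2b was at 0.76 ± 0.18, the BMP ligand gene bmp4 at -0.83 ± 0.29 and the mesendoderm homeobox gene mixl1 at -0.47 ± 0.04. With array 3 turned, these genes were at 0.14, -0.49 and -0.18. A second Kruppel-like factor gene, klf2a, was at 2.28, 2.14 and -0.17 on arrays 1, 2 and 3, and at a mean of 1.53 with array 3 turned. Of the list, eomesa alone passed with array 3 turned, at 0.83, against 15.3% of all genes. Its dye-balanced value, with the columns read by sample, was 0.08. The SoxB1 target her3, a hairy-related repressor of neural differentiation, was at -0.47, 0.06 and -0.70 on arrays 1, 2 and 3. The ventral repressor genes vox and vent, known targets of Pou5f3, were at -0.02 ± 0.20 and -0.02 ± 0.30.

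Early neural plate genes also had no passing member, against 0% of all genes. Of 44 listed, 32 were measured, with a median of -0.06. On all 3 arrays 6 were below 0 and 5 above 0, against 19.8% and 12.4% of all genes. The anterior genes irx7 and otx1 were at 0.85 ± 0.04 and 0.87 ± 0.23, the midbrain-hindbrain gene her5 at 1.61 ± 0.52, and irx1b at -0.91 ± 0.32. With array 3 turned, irx7, otx1, her5 and irx1b were at 0.26, 0.46, 0.16 and -0.46. The low values of sox2 and sox3 were thus not shared by every gene of the list. Turning array 3 gave 3 passing genes of the list (fezf2, zic1 and sox21a), each above 0, against 15.3% of all genes. Their dye-balanced values, with the columns read by sample, were 0.17, -0.21 and -0.23. How the oligos of this list compare with the random control medians is not given here. Of all oligos, 28% were brighter than these medians in both columns of every array.

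Related genes of the same protein families gave a mixed picture. Of 6 other Sox genes, the endoderm regulator sox32, which acts downstream of Nodal signals, was at -1.53, -1.85 and -1.40 on arrays 1, 2 and 3, and the other 5 did not keep 1 sign over the arrays. Once array 3 was turned, 4 of the 6 Sox genes kept 1 sign, all above 0, and sox32 did not. None of 7 other POU genes kept 1 sign over the arrays, and all 7 did with array 3 turned, 3 of them below 0 and 4 above 0. Over all 997 genes, 546 kept 1 sign with array 3 turned. As read, 19.8% of all genes were below 0 on all 3 arrays and 12.4% above 0. Of 14 other forkhead genes, 5 were below 0 on all 3 arrays, among them foxa3 at -0.97 ± 0.15 and foxc1a at -1.18 ± 0.56, and foxb1b was above 0 on all 3, at 0.47 ± 0.06. With array 3 turned, 0 of the 14 were below 0 on all 3 arrays and 4 were above 0. No gene of these families passed limma's test, against 0% of all genes. With array 3 turned, 2 Sox, 1 POU and 3 forkhead genes passed (sox10, sox21a, pou4f3, foxn4, foxa1 and foxo3b), against 15.3% of all genes. With the columns read by sample, their dye-balanced values were -0.19, -0.23, -0.36, -0.06, -0.11 and -0.13, in that order. Under that reading, turning array 3 gives the dye component of a gene 1 sign on all 3 arrays. Which reading holds was not tested.

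Some markers of other cell populations in the pools also lay away from 0, and others did not keep 1 sign over the arrays. None passed limma's test, and the part of these markers in the members' values was not tested. Of 8 mesendoderm markers, 7 were below 0 on all 3 arrays, against 19.8% of all genes. The means over the list were -1.21, -0.94 and -0.99 on arrays 1, 2 and 3. With array 3 turned, 0 of the 8 were below 0 on all 3 arrays and 1 (noto) was above 0. By p, sox32 was followed by tbx16 at -1.19 ± 0.07, tbxta at -2.71 ± 0.82 and gata5 at -1.37 ± 0.39. With array 3 turned, sox32, tbx16, tbxta and gata5 were at -0.66, -0.45, -1.10 and -0.71. The list mean of 4 enveloping layer markers was -1.01, -0.87 and -1.09, but only krt4 and cyt1 were below 0 on all 3 arrays, and krt5 was at 0.005, -0.08 and -1.75. With array 3 turned, 1 of the 4 was below 0 on all 3 arrays. The list mean of 3 germ cell markers was 1.04, 0.82 and 0.87. Of the 3, dazl alone was above 0 on all 3 arrays, at 1.96 ± 0.75, and at 0.12 with array 3 turned. The other two, nanos3 and ddx4, were at 0.72 ± 0.75 and 0.05 ± 0.06, each below 0 on array 3. Of 3 measured maternal transcripts that embryos clear early, ccnb1 and cth1 were above 0 on all 3 arrays, at 0.94 ± 0.10 and 1.09 ± 0.77, and ybx1 was below 0 on all 3, at -0.81 ± 0.39. With array 3 turned, 0 of these 3 kept 1 sign. The yolk syncytial layer list had 1 measured gene, gata6, at -0.76 ± 0.41.

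**Figure D4:**
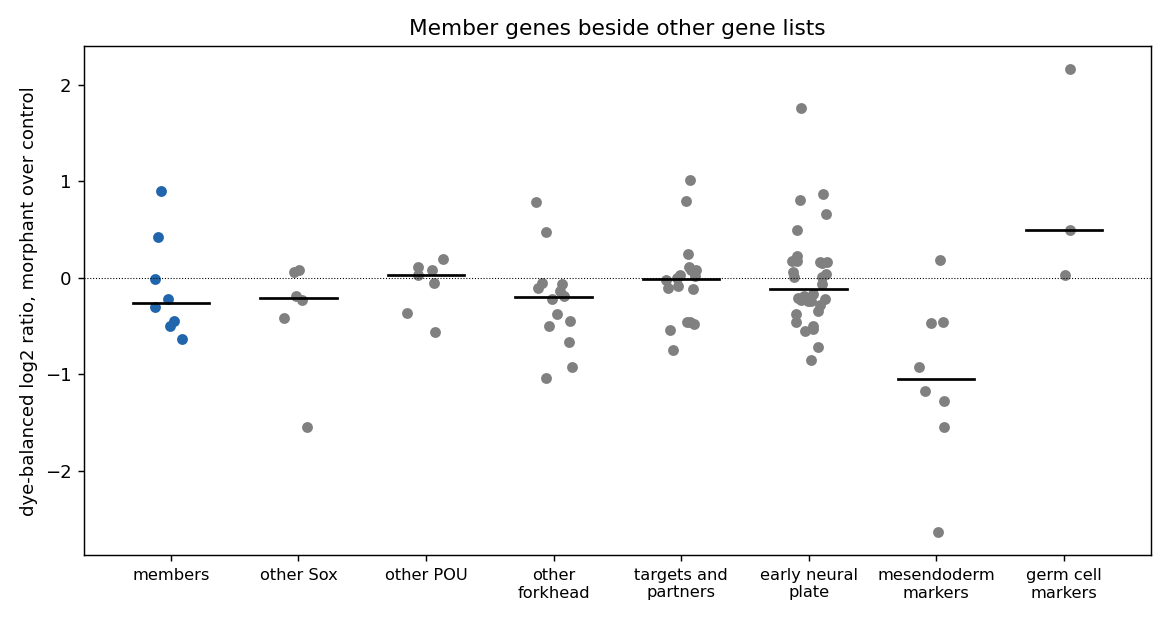
Dye-balanced log2 ratio, FoxH1 morphant over control (y axis), of each gene in the lists named on the x axis. Each point is 1 gene and each bar the median of its list; points are spread sideways only to separate them. The 8 members run from -0.64 for sox2 to 0.89 for sox19b, while the mesendoderm markers reach down to -2.64 and the targets and partners have a median of -0.01.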

How the data were processed

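Zebrafish RNA was measured on 3 printed 2-colour oligo arrays. Per the file headers, each spot table gives mean red and green intensity, local background values with their SDs, and a ratio and quality score (0 to 1) for every spot. The authors' intensity columns were already background-subtracted. The deposited ratio is red over green divided by the array constant (2.8186, 2.7008 and 0.3985), within 1% for 99.4% or more of spots. The authors' deposited log2 table is minus log2 of that ratio within 0.01 at 100% of its values, with medians of -0.02, 0.00 and 0.00. Its scale, centring and direction are thus known relative to the columns. Whether array 3's columns follow samples or dyes is not stated. Spots with a deposited quality score of 0 (13.8% to 16.1%) were left out. The scanner software is not given in the sources used here. Whether the RNA was amplified (series text) or reverse transcribed directly (labels' protocol) is not settled.

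Green over red, morphant over control, was normalized by loess (span 0.3) within each array. Spots of an oligo were averaged, and oligos of a gene were averaged. Tested oligos had a usable spot on each of the 3 arrays and, on 2 or more of them, a signal over 2 SDs of the local background in at least 1 column. Symbols came from RefSeq accessions (1306 of 1379 found in a table for assembly GRCz12tu), the symbol column and titles, and named 2321 of 34033 oligos (6.8%). Tests used limma 3.58.1 (R 4.3.3; eBayes after lmFit, with Benjamini-Hochberg adjustment over all features), with no dye term and, as an alternative, with one. The fits were tested on simulated data. The number of arrays limits the precision. Figures were drawn with Python 3.11.15 and matplotlib 3.10.9. The members, lists and the reading of array 3 were chosen with earlier results of these data known. Named genes are all members, up to 4 genes with the smallest p of each list, and the 2 genes nearest each member; her3, vox, vent and the genes named for passing with array 3 turned lie outside that rule and were chosen after their values were seen. Other settings are given in the closing section.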

Additional observations from a re-analysis of the deposited data

How the results depend on the processing

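The member genes were refitted under 13 planned settings and 2 chosen after seeing the data (oligos from own zebrafish entries, and a dye term with median centring). Sox19b, sox11b, sox2, foxd3 and sox11a kept their sign in every setting that gave a value. Sox19a was at -0.011 with a dye term, -6.3e-05 with median centring, -0.0069 with deposited values and -0.075 with a dye term and median centring, and ran from -0.018 to 0.35 when 1 array was left out. Pou5f3 was at 0.066 and sox3 at 0.12 with array 3 turned, and pou5f3 at 0.088 with poor spots kept. Counts of passing features were 153 of 997 genes, 2515 of 26196 oligos and 2 of 22 member oligos with array 3 turned. When 1 array was left out, they ran from 0 to 436 of 997 genes and from 0 to 6050 of 26196 oligos. Among the members they ran from 0 to 3 of 8 genes and from 0 to 7 of 22 oligos. The upper ends were without array 3, where dye components enter with 1 sign. There, sox19b, foxd3 and sox11a were the 3 member genes (limma adjusted p = 0.0288, 0.0204 and 0.0350), beside 436 of all 997 genes. Maternal minus zygotic was 0.22 with array 3 turned, 0.80 with poor spots kept, 0.22 with the brightest oligo and 0.47 with own zebrafish entries. Sox2 and sox3 drop out of the last by construction. With poor spots kept, pou5f3 entered at 0.088 in place of -0.24. With the brightest oligo, sox19b entered at 0.21 in place of 0.86, and sox2 at -0.43 in place of -0.60. No cause beyond these changes of input was tested. No paired analysis was possible because each array already holds a morphant and a control pool, so the pairing is in the ratio.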

Other observations

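An oligo that the naming rule does not reach shares a UniGene cluster with the Compugen oligo of sox19b, and RefSeq lists its clone name as a synonym of that gene. Its log2 ratio was 0.82, 0.34 and 1.92 on arrays 1, 2 and 3, above 0 on each, with a mean of 1.03 ± 0.81 (SD, n = 3). With it included, sox19b was at 0.90. Its intensities were 436.8, 180 and 721 in morphants and 675.7, 355.8 and 75 in controls. The control values lay below the random control medians on every array, and the morphant values above them.

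The pou5f3 oligo left out for its quality score on array 1 was dim, with intensities of 89.2, 91.9 and 60.9 in morphants and 42.5, 47 and 98.4 in controls. Its log2 ratio was 1.88 on array 2 and -1.68 on array 3.

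The genes with the most similar values over the 3 arrays, by Euclidean distance between log2 ratios, were hic1l and mcl1a for sox19b (distances 0.123 and 0.129), mixl1 and fbxw4 for sox11a (0.0834 and 0.125), jupa and dnmt3bb.2 for sox2 (0.0707 and 0.232), sst2 and ctsd for pou5f3 (0.0612 and 0.121), acvr1ba and her8a for sox3 (0.121 and 0.170), nrf1 and cldn7b for sox11b (0.125 and 0.131), sec61a1a and actb1 for sox19a (0.0935 and 0.102), and igfbp2a and rbp3 for foxd3 (0.0816 and 0.119). With 3 arrays, such a likeness is a description only.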
